A study of Homo sapiens with 9 samples.

Results

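The adenosine deaminases acting on RNA and on tRNA were followed across HEK293 cells that overexpressed either isoform of one of them, ADARB1. The members were taken by name as a gene family, with earlier results of these data known, and are the 8 genes ADAR, ADARB1, ADARB2, ADAD1, ADAD2, ADAT1, ADAT2 and ADAT3 of the 54562 Ensembl genes measured. The line HEK293 was derived from human embryonic kidney. The 3 groups were transiently transfected with the empty vector (EV), with a plasmid for the ADARB1 isoform that skips an *Alu*-derived exon (Short), or with a plasmid for the isoform that includes it (Long). All groups received a plasmid and were collected 48 hours after transfection, and each group had 3 libraries from 3 cell passages. Libraries with the same replicate number were taken to come from the same passage. The isoforms therefore came from pCMV6-AC plasmids on top of the ADARB1 that the cells expressed themselves. Polyadenylated RNA was sequenced strand-specifically, and levels are given as FPKM, fragments scaled to gene length and to the mapped fragments of the library.

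Enzymes of this family remove the amino group from adenosine and leave inosine, which pairs like guanosine. ADAR and ADARB1 act on double-stranded RNA, in which they edit coding sites and, most often, repeats such as *Alu* elements. ADAT2 and ADAT3 form 1 enzyme that makes inosine at the wobble position of tRNA anticodons, and ADAT1 acts next to the anticodon of an alanine tRNA. ADARB2 is a brain-enriched relative without known deaminase activity, and ADAD1 and ADAD2 are relatives known from male germ cells.

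The libraries were alike in size. Their depth, read from the steps of the lowest values, was 0.993 to 1.21 times that of EV replicate 1. This is a rough estimate, since 22.1% to 45.9% of the low genes used lay close to it outside EV replicate 1. Replicate 3 had the highest estimate in each group (1.16 in EV, 1.21 in Short and 1.11 in Long). Of 7 marker genes listed for HEK293, the 5 found in the table (PAX2, NEFM, VIM, KRT8 and KRT18) summed to 444 to 477 FPKM in EV, 473 to 541 in Short and 498 to 521 in Long. These markers were uneven, with EV means of 176 FPKM for KRT8, 143 for VIM, 79.9 for KRT18, 58.2 for NEFM and 2.28 for PAX2. KRT8, a keratin, was the marker past the threshold (Long against EV, 0.20 on the log2 scale, limma, adjusted p = 0.0499). Markers of blood, liver, endothelium, fibroblasts and muscle (10 of 11 found) summed to 11.2 to 14.9 FPKM over all 9 libraries. Most of this came from the collagen COL1A1, whose EV mean of 10.7 FPKM lay above that of PAX2. The haemoglobin gene HBB was listed at 0.

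In EV cells ADAR was by far the most abundant member, at 61.0 ± 2.01 FPKM (SD, n = 3), above 90.3% of the 13815 genes with at least 1 FPKM. Next came ADAT2 with 9.27 ± 1.4 FPKM and ADARB1 with 8.09 ± 0.479 FPKM, whose ranges overlapped, so the order of these neighbours is not separated by their spread. ADAT1 followed with 6.62 ± 0.551 FPKM, ADAT3 with 4.05 ± 0.488 and ADARB2 with 1.08 ± 0.232, each below its predecessor in all 3 libraries. The median of the genes with at least 1 FPKM was 11.6, so ADAR lay above it and the other members below. ADAD1 was listed at 0 in 8 libraries and at 0.0197 FPKM in EV replicate 3, and ADAD2 at 0 in all 9. Apart from ADARB1, which moved to the top, the order was the same in Short and Long, and in Short the ranges of ADAT2 and ADAT1 overlapped. FPKM is per gene length, which allows levels of different genes to be set side by side where the length used holds for the transcripts present.

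**Figure D1:**
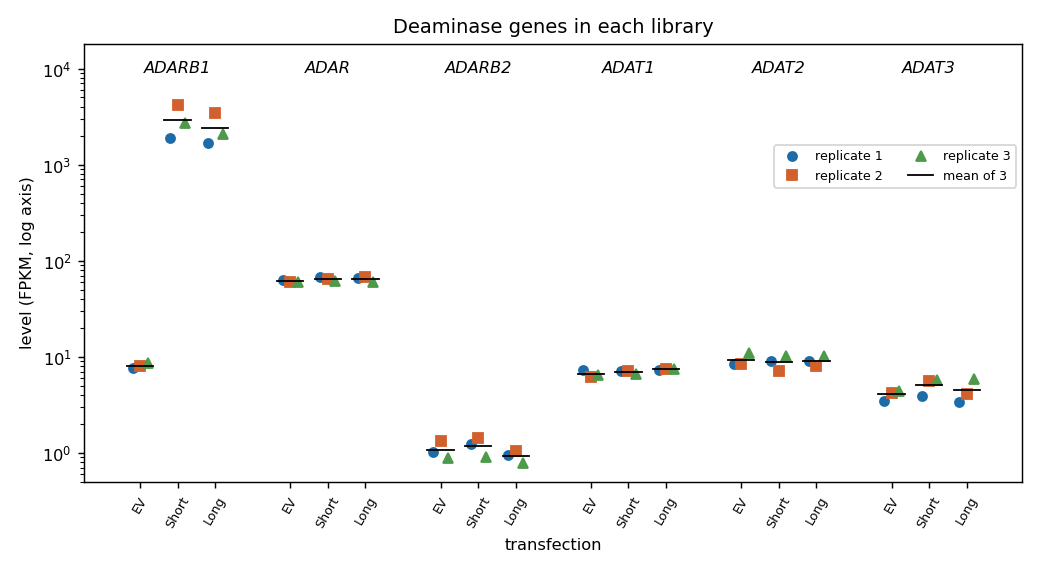
Levels of the 6 tested members in each library (FPKM, log axis) by transfection, with the replicate as symbol and the mean of 3 libraries as a line. ADARB1 lies at 7.66 to 8.61 FPKM in EV and at 1695 to 4145 FPKM in the transfected groups, while the other 5 members lie between 0.785 and 68.1 FPKM in all groups.

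ADARB1 (ENSG00000197381, chr21:46493768-46646475, plus strand), the transfected gene, served as the check of the EV labels against those of the transfected groups. Its gene level cannot check the Short labels against the Long labels. Its EV libraries held 7.66, 8.0 and 8.61 FPKM, its Short libraries 1889, 4145 and 2735, and its Long libraries 1695, 3449 and 2080. Every transfected library lay far above every EV library, and replicate 2 was the highest in both transfected groups. In bulk RNA, more transfected cells and more transcript per transfected cell cannot be told apart. Within a passage the ratio to EV was 247, 518 and 318 in Short and 221, 431 and 242 in Long. On the log2(FPKM + 1) scale ADARB1 rose by 8.26 in Short (SE 0.16, 95% interval 7.89 to 8.62, limma, Benjamini-Hochberg adjusted p = 1.58e-09) and by 7.99 in Long (7.62 to 8.35, adjusted p = 2.23e-09). Both increases are fold changes of the gene as a whole. The canonical transcript has 6902 nt with 2103 nt of coding sequence, and which length entered the FPKM of the plasmid transcripts is not given in the sources used here.

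Long libraries held 0.897, 0.832 and 0.760 times the ADARB1 of the Short library of the same passage, lower in 3 of 3 pairs. The groups overlapped, and the difference of -0.27 (95% interval -0.63 to 0.09) did not pass the threshold (limma, adjusted p = 0.783, and 0.0633 to 1.0 over 13 alternatives). The interval leaves room for either order, so these FPKM values alone do not show equal expression of the 2 isoforms. The FPKM table does not separate isoforms.

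The make-up of the family differed between EV and the transfected groups. ADARB1 made up 8.41%, 9.02% and 9.50% of the summed FPKM of the members in EV, then 95.5%, 98.0% and 97.0% in Short and 95.1%, 97.5% and 96.1% in Long. ADAR made up 69.4%, 68.2% and 65.5% of that sum in EV and between 1.54% and 3.71% in the transfected libraries. Both shares contain the overexpressed gene and are descriptions without a test. The shares, and the ratios that follow, depend on the length that entered the FPKM of the plasmid transcripts, which is not given. The ratio of ADARB1 to ADAR was 0.121, 0.132 and 0.145 in EV, 28.1, 63.5 and 44.4 in Short, and 25.6, 50.6 and 34.6 in Long. Without ADARB1 the members summed to 80.7 to 83.4 FPKM in EV, 85.0 to 88.5 in Short and 84.4 to 88.8 in Long. FPKM has no fixed sum per library, and the sum over all genes was also lowest in EV in each passage. That sum was 541348, 524578 and 517170 in EV, 589535, 556722 and 533531 in Short, and 567585, 556234 and 544461 in Long. A difference of the summed members beyond this was not tested. Fitted singly after rescaling to the same summed FPKM, no member except ADARB1 passed the threshold against EV (limma). The other differences then lay between -0.16 (ADAT2) and 0.19 (ADAT3) in Short, and between -0.14 (ADARB2) and 0.08 (ADAT1) in Long.

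**Figure D2:**
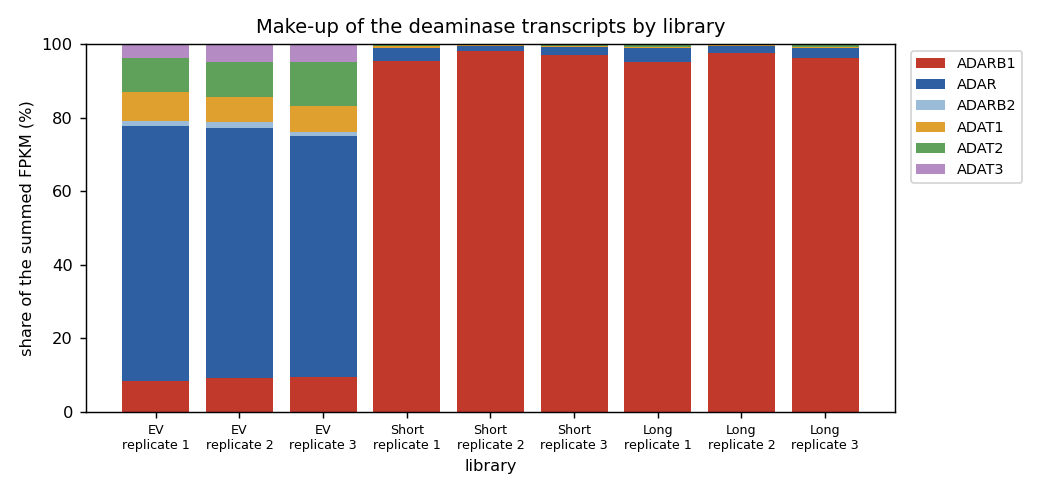
Share of each member in the summed FPKM of the family (%), 1 bar per library. ADAR fills 65.5% to 69.4% of the EV bars, and ADARB1 fills 95.1% to 98.0% of the Short and Long bars.

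Of the 8 members, 6 passed the filter of a mean of 1 FPKM, and ADAD1 and ADAD2 were not tested. Past the threshold in Short against EV was 1 of the 6, ADARB1, where the background was 0.0362% of 13801 genes (0.029% higher, 0.00725% lower). In Long against EV it was again ADARB1 alone, 1 of 6, beside a background of 8.32%. In Long against Short it was 0 of 6, beside 0.00725%; limma gave 0 members at an unadjusted p under 0.05 as well, where 7.54% of all genes had one. Over the 5 members without ADARB1 the median difference was 0.07 for Short, 0.08 for Long and 0.00 between them, beside 0.04, 0.04 and -0.02 over all genes tested. Both comparisons with EV use the same 3 EV libraries.

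**Figure D3:**
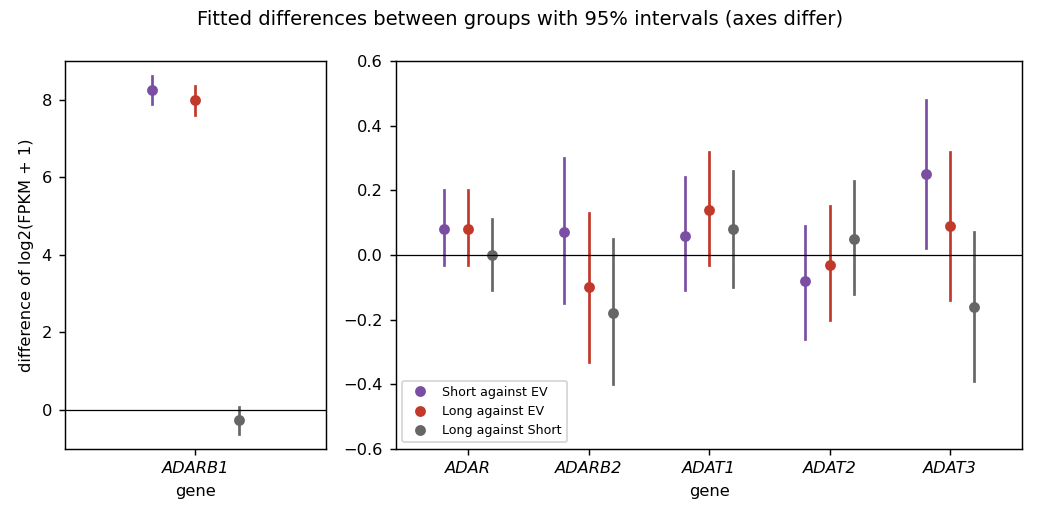
Fitted difference of log2(FPKM + 1) between groups (points) with 95% intervals (bars) for ADARB1 on the left and the other 5 tested members on the right, on different axes. Away from ADARB1, the interval of ADAT3 in Short against EV (0.02 to 0.48) is the 1 that does not reach 0, before adjustment.

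ADAR (ENSG00000160710, chr1:154554171-154600489, minus strand), the most widely expressed editing enzyme, held 63.2, 60.5 and 59.3 FPKM in EV, 67.3, 65.2 and 61.7 in Short, and 66.2, 68.1 and 60.1 in Long. It was higher than EV in 3 of 3 pairs for each isoform, but the ranges overlapped. The difference was 0.08 for Short (95% interval -0.03 to 0.20, limma, adjusted p = 0.356) and 0.08 for Long (-0.03 to 0.20, adjusted p = 0.346). Higher in all 3 pairs were 4 of 6 members in Short, beside 32.0% of all genes, and 3 of 6 in Long, beside 27.4%. When the libraries were rescaled to the same summed FPKM, the ADAR difference in Short became -4.9e-05. Long and Short differed by 0.00 (-0.11 to 0.11, adjusted p = 1.0).

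ADARB2 (ENSG00000185736, chr10:1223253-1779719, minus strand) held 1.03, 1.33 and 0.877 FPKM in EV, 1.23, 1.42 and 0.912 in Short, and 0.958, 1.05 and 0.785 in Long. These levels lie at the filter, and all 3 groups overlapped. Short was above EV in 3 of 3 pairs (0.07, 95% interval -0.15 to 0.30, limma, adjusted p = 0.705) and Long below it in 3 of 3 (-0.10, -0.33 to 0.13, adjusted p = 0.588). It was the 1 of 6 members lower than EV in all 3 Long pairs, beside 18.1% of all genes. The direct comparison of Long with Short gave -0.18 (-0.40 to 0.05, adjusted p = 0.775), lower in 3 of 3 pairs, where 18.5% of all genes were lower in all 3. In each group replicate 2 was the highest and replicate 3 the lowest. The annotated antisense gene ADARB2-AS1 was listed at 0 in 8 libraries and at 0.0645 FPKM in EV replicate 1.

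ADAD1 (ENSG00000164113, chr4:123300121-123350957, plus strand) and ADAD2 (ENSG00000140955, chr16:84224744-84230774, plus strand) gave no level to compare. The unnamed antisense gene that shares 2359 exonic bases with ADAD2 was listed at 0 in all libraries.

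Among the tRNA deaminases, ADAT1 (ENSG00000065457, chr16:75630766-75657198, minus strand) held 7.22, 6.14 and 6.51 FPKM in EV, 7.11, 7.17 and 6.58 in Short, and 7.34, 7.52 and 7.38 in Long. In the deposited FPKM, all Long libraries lay above all EV and all Short libraries. Long exceeded EV by 0.14 (95% interval -0.03 to 0.32, limma, adjusted p = 0.297), and the exact two-sided permutation test over libraries gave p = 0.1, the smallest that 3 against 3 allows. After rescaling to the same summed FPKM, the difference of Long from EV became 0.08 (limma, adjusted p = 0.649). Whether the ranges stay apart after rescaling was not tested. Ranges that did not overlap were found for 2 of 6 members in Long against EV (ADARB1 and ADAT1), beside 13.6% of all genes, for 1 of 6 in Short against EV (ADARB1), beside 13.0%, and for 1 of 6 in Long against Short (ADAT1), beside 3.83%. Short differed from EV by 0.06 (-0.11 to 0.24, adjusted p = 0.673) and Long from Short by 0.08 (-0.10 to 0.26, adjusted p = 0.918).

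ADAT2 (ENSG00000189007, chr6:143743969-143771832, minus strand), the catalytic subunit of the wobble enzyme, held 8.45, 8.48 and 10.9 FPKM in EV, 8.96, 7.12 and 10.1 in Short, and 8.98, 7.99 and 10.2 in Long. Replicate 3 was the highest in each group, and the groups overlapped. The differences were -0.08 for Short against EV (95% interval -0.26 to 0.09, limma, adjusted p = 0.571), -0.03 for Long against EV (-0.20 to 0.15, adjusted p = 0.876) and 0.05 for Long against Short (-0.12 to 0.23, adjusted p = 0.964). After a correction for GC content both differences from EV changed sign, to 0.05 and 0.15.

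ADAT3 (ENSG00000213638, chr19:1905398-1913446, plus strand), the partner subunit, held 3.49, 4.24 and 4.41 FPKM in EV, 3.91, 5.54 and 5.72 in Short, and 3.35, 4.12 and 5.94 in Long. Short was higher than EV in 3 of 3 pairs, with overlapping ranges. The difference was 0.25 (SE 0.10, 95% interval 0.02 to 0.48), and after adjustment over all genes it did not pass (limma, adjusted p = 0.189). At an unadjusted p under 0.05 were 2 of 6 members in Short against EV (ADARB1 and ADAT3), beside 22.0% of all genes, and 1 of 6 in Long against EV (ADARB1), beside 24.4%. Long differed from EV by 0.09 (-0.14 to 0.32, adjusted p = 0.631) and from Short by -0.16 (-0.39 to 0.07, adjusted p = 0.805).

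ADAT3 overlaps SCAMP4, a gene for a secretory carrier membrane protein, and shares 771 exonic bases with it on the same strand, so fragments from these bases cannot be assigned by strand. SCAMP4 held 19.1, 16.6 and 16.7 FPKM in EV, 20.6, 22.9 and 18.3 in Short, and 18.0, 22.0 and 18.9 in Long. Its difference in Short against EV was 0.22 (limma, adjusted p = 0.181), near that of ADAT3, and its part in the ADAT3 value was not tested. On the opposite strand of ADARB1, the pseudogene SSR4P1 shares 51 exonic bases and held 0.392 to 1.71 FPKM over the 9 libraries.

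Since ADAT2 and ADAT3 work as 1 enzyme, their ratio was compared. ADAT2 exceeded ADAT3 2.42, 2.00 and 2.47 times in EV, 2.29, 1.28 and 1.76 times in Short, and 2.68, 1.94 and 1.72 times in Long. All 9 ratios were above 1. The log2 ratio was 1.19 ± 0.17 in EV, 0.79 ± 0.42 in Short and 1.05 ± 0.33 in Long (SD, n = 3). It was lower in Short than in EV in each passage (-0.08, -0.64 and -0.48), which the exact two-sided permutation test did not separate (p = 0.2 over libraries, p = 0.25 over pairs, the smallest that 3 pairs allow). Long against EV (mean -0.14, exact permutation p = 0.6) and Long against Short (mean 0.26, exact permutation p = 0.5) had pairs in both directions. The ratios were not corrected for GC content or for the exonic bases that ADAT3 shares with SCAMP4. In the fit, the GC correction moved Short against EV from -0.08 to 0.05 for ADAT2 and from 0.25 to 0.1 for ADAT3.

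Some members also differed between passages. The test of the passages was chosen after the values had been seen. It passed the threshold for 3 of 6 tested members, beside 36.4% of all genes: ADARB1 (limma F test, adjusted p = 0.0155), ADAT2 (0.0134) and ADAT3 (0.0152). For ADARB1 the spread lay in the transfected groups, with 1889, 4145 and 2735 FPKM in Short and 1695, 3449 and 2080 in Long. Its EV libraries held 7.66, 8.0 and 8.61 FPKM, in another order of the passages. ADAT2 averaged 8.80, 7.86 and 10.4 FPKM in passages 1, 2 and 3, and ADAT3 averaged 3.59, 4.64 and 5.36. With a correction for GC content, under which 28.2% of all genes passed, the adjusted p was 0.435 for ADAT2, whose longest transcript has 38.8% GC, and 0.00331 for ADAT3, with 71.7% GC. Leaving out 1 replicate ended the call in some cases: for ADAT2 without replicate 2 (0.0695) or 3 (0.519), and for ADARB1 and ADAT3 without replicate 1 (0.0805 and 0.245) or 3 (0.138 and 0.308). Without the filter on low values the calls of ADARB1 (0.13) and ADAT3 (0.083) also ended. ADAR (0.169), ADARB2 (0.114) and ADAT1 (0.713) did not pass, but with the length correction ADAR (0.0283) and ADARB2 (0.0229) did, as did ADARB2 without a trend (0.0249).

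**Figure D4:**
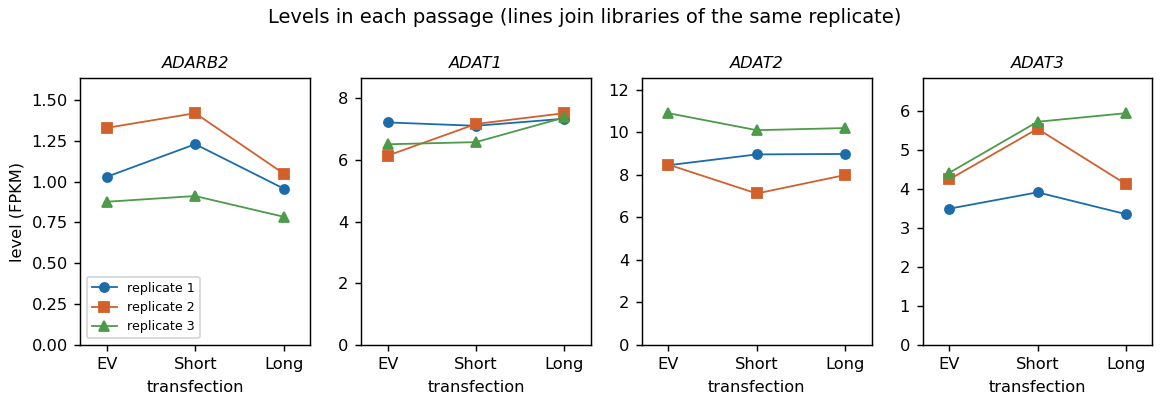
Levels (FPKM) of 4 members by transfection, with lines joining the libraries of the same replicate and passage. In ADARB2 and ADAT3 the lines keep the same order in all 3 groups, which 17.6% of all genes do, and the ADAT1 lines cross.

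Other deaminases and the genes that handle inosine were listed from their known roles. Of 9 deaminases of free nucleosides, nucleotides and bases, 5 were tested, and of 12 genes listed under the polynucleotide cytidine deaminase family, 6 were. None of either list passed in any of the 3 comparisons by limma, and at an unadjusted p under 0.05 stood 1 of 5 genes of the former in Short against EV (22.0% of all genes) and 1 of 6 of the latter in Long against Short (7.54%). The 2 most abundant genes of each list were DCTD, which deaminates dCMP (38.9 FPKM over all libraries), AMPD2, which turns AMP into IMP (25.3), and then the antiviral cytidine deaminases APOBEC3C (20.1) and APOBEC3B (7.47). APOBEC1 and APOBEC4 were listed at 0 in every library.

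All 11 genes of inosine handling were tested, and none passed (limma, unadjusted p under 0.05 in 3 genes for Short against EV, 4 for Long against EV and 1 for Long against Short, beside 22.0%, 24.4% and 7.54% of all genes). Their median difference was 0.04, 0.12 and 0.03, beside 0.04, 0.04 and -0.02 over all genes. IMPDH2, which commits IMP to guanine nucleotide synthesis, was the most abundant at 171 FPKM, and its difference was 0.16 in Short (adjusted p = 0.111) and 0.13 in Long (adjusted p = 0.109). SND1, a nuclease known to bind inosine-containing RNA, averaged 96.0 FPKM and differed by -0.01 (adjusted p = 0.902) and 0.12 (adjusted p = 0.185).

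All 28 genes listed under modification of the tRNA anticodon loop, where the ADAT enzymes also act, were tested. The list is broad, and not every product modifies the loop itself. In Long against EV 1 gene fell, beside 6.33% of all genes, and 0 rose, beside 1.99%. In the other comparisons limma called 0, and an unadjusted p under 0.05 was found for 7 of 28 genes in Short against EV (22.0% of all genes), 9 in Long against EV (24.4%) and 2 in Long against Short (7.54%). The gene that fell was TYW3, an enzyme of wybutosine synthesis in phenylalanine tRNA. Its libraries held 11.2, 9.85 and 17.8 FPKM in EV, 9.25, 8.61 and 15.4 in Short, and 7.95, 7.50 and 15.5 in Long. Replicate 3 was the highest in each group and the groups overlapped, while Long was below EV in each pair. The difference was -0.33 (SE 0.07, limma, adjusted p = 0.025), past the threshold in 7 of 13 alternatives, with an adjusted p of 0.00867 to 0.779. The call ended when the block was dropped (0.779), with only the groups compared (0.0555), without a filter (0.104), with the GC correction (0.433, difference -0.12), and without replicate 1 (0.143) or 2 (0.192). The most abundant of the list, NSUN2, a tRNA cytosine methyltransferase (86.4 FPKM), and ELP2, an Elongator subunit (63.0 FPKM), differed by 0.18 (adjusted p = 0.0542) and 0.06 (adjusted p = 0.705) in Long against EV.

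The genes whose values over the 9 libraries lay nearest to those of ADAR, by the root mean square difference of centred log2(FPKM + 1) values, were GID8 (0.023), BCL2L1 (0.0234) and BMP2 (0.0247). ADARB1 had no near neighbour: the closest were SNORA21 (3.13), GH1 (3.19) and ENSG00000199452 (3.24). GH1, the growth hormone gene, held 0.392, 0.667 and 1.10 FPKM in EV, 1.38, 5.02 and 4.37 in Short, and 2.07, 5.75 and 3.37 in Long. All Short and Long libraries lay above all EV libraries, which is a description only, since the gene was picked for its likeness to ADARB1 and its EV mean of 0.719 FPKM is below the filter. The polyadenylation signal of GH1 is used in some expression vectors, and whether plasmid reads were counted for it was not tested.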

How the data were processed

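RNA-seq was carried out on 9 libraries of transfected HEK293 cells, 3 for each of EV, Short and Long. The authors aligned with TopHat 1.4.1, first to the Ensembl transcriptome and next to the hg19 genome, and deposited 1 FPKM value for each gene in each library. The submitters' processing notes also name Cufflinks, and whether counting used strand is not given in the sources used here. No counts were used, so depth is known only relative to 1 library and no detection floor was computed. Because FPKM is scaled to the library, an abundant transcript lowers the values of other genes.

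The deposited values were moved to log2(FPKM + 1) and fitted by limma 3.58.1 in R 4.3.3 (lmFit, eBayes with a trend) over 13801 genes whose mean reached 1 FPKM. Fold changes on this scale understate the change of low genes. The 3 groups entered the fit together with a block for the replicate number, with Benjamini-Hochberg adjustment and a threshold of 0.05. The fit was also run on simulated data. The shifts set there exceeded every member difference except those of ADARB1 against EV, so that run does not bear on differences this small. The study's methods state that transfections were repeated in different passages and that editing was compared within each replicate. That libraries with the same replicate number share a passage was taken from this, since the sample titles give the number alone. Deviations from the group means correlated at 0.552 on average (0.327 to 0.813) over the 9 same-numbered pairs and at -0.256 over the 18 others. Such deviations cancel within each group, which ties both averages together, so the second is no separate evidence for the pairing. Single values were compared with exact two-sided permutation tests over libraries. Replicates are passages of 1 cell line.

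Symbols were taken from GENCODE v44lift37 on GRCh37, matching 47578 identifiers (87.2%) and all 8 members. Some items are not reported here. The members and the gene lists were chosen with earlier results of these data known. Named were the members, each list's genes past the threshold, its 2 most abundant genes, and the 3 genes most like ADAR and ADARB1. Alternatives were a pseudocount of 0.1, rescaling to the same sum (TPM) or by median ratio, no block, only the compared groups, no trend, no filter, a minimum of 5 FPKM, each replicate left out, and corrections for GC or length (loess span 0.3). The test between passages was added after the values were seen.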

Additional observations from a re-analysis of the deposited data

Results flagged for a closer look

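The values of ADARB2 lay on opposite sides of EV: all 3 Short libraries were above and all 3 Long libraries below the EV library of the same passage, with overlapping groups and no difference past the threshold. Of all genes, 32.0% were higher than EV in all 3 Short pairs and 18.1% lower in all 3 Long pairs. The share of genes with both was not computed. The fitted difference of Long against Short was -0.18 on the log2(FPKM + 1) scale (limma, adjusted p = 0.775), which did not pass the threshold, with levels of 0.785 to 1.42 FPKM over the 9 libraries. With the GC correction the Short difference from EV became -0.01. The cause was not tested.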

How the results depend on the processing

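The call of ADARB1 against EV, and no call for the other members, held in every alternative run, with 8.26 and 7.99 as the differences also without the replicate block. The count of listed pathway genes past the threshold in Long against EV was 1. It was 2 after rescaling to the same sum, after median-ratio scaling (with TRDMT1) and with a minimum of 5 FPKM (with NSUN2). It was 0 without the replicate block, with only the compared groups, without a filter and with the GC correction, and 0 to 1 with 1 replicate left out. With 1 FPKM added, the EV log2 ratio was 1.02 for ADAT2 to ADAT3 and 2.77 for ADAR to ADARB1.

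Uncalled differences changed sign in 11 cases. With rescaling to the same sum, Short against EV became -4.9e-05 for ADAR and -0.01 for ADAT1. With the GC correction it became -0.01 for ADARB2 and 0.05 for ADAT2, ADAT2 in Long against EV became 0.15, and ADAR in Long against Short became -0.03. With the length correction ADAT2 in Long against EV became 0.02. With 1 replicate left out, the differences from EV ranged from -0.003 to 0.1 for ADAT1 in Short, and from -0.08 to 0.0023 for ADAT2 and -0.04 to 0.16 for ADAT3 in Long. That of ADAR in Long against Short reached -0.03. The cause was not tested. What depth limits could not be measured, since no counts were used.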
